A study of Mus musculus with 8 samples.

Results

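In wild-type (WT) mouse condensing spermatids, 1239304 of the 3748879 nucleosome positions called on chromosomes 1 to 19 had no position of an earlier WT stage close by. A position was taken as new when its summit, the point of highest coverage, had no summit within 73 bp in the WT spermatocyte list and none within 73 bp in the WT round spermatid list. The other 2509575 condensing summits had an earlier summit within that distance in at least 1 of those lists. The 8 lists of the study together held 37461253 positions. Members were thus chosen by summit positions in 3 WT lists, so the lack of an earlier summit is how the set was made and not a finding. Summit heights, fuzziness scores and the 5 remaining lists did not enter the choice.

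A nucleosome is a stretch of DNA wrapped round a core of histones, and micrococcal nuclease (MNase) removes the linker DNA between such cores, so that the protected fragments mark where each core lay. During spermiogenesis haploid round spermatids elongate and condense, and most of their histones give way to transition proteins and then to protamines, the small basic proteins of sperm chromatin. H2A.L.2 is a histone H2A variant of the testis that is loaded onto chromatin in condensing spermatids. Positions seen there but not earlier can be nucleosomes that moved, nucleosomes first assembled at that stage, or sites missed in the earlier lists, and position lists alone do not tell these apart.

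Libraries came from H2A.L.2-less and WT testes, with cell fractions enriched for spermatocytes (cells in meiosis), round spermatids and condensing spermatids. Each stage and genotype had 1 nucleosome library, and condensing spermatids of each genotype also had 1 library of small structures, fragments of about 40 to 80 bp that electrophoresis parted from the nucleosome-like fragments of about 130 to 170 bp. The labels name neither the strain, the allele, the age nor the number of animals. With 1 library per group no test between libraries was possible, and the SDs given are over 19 autosomes and describe variation along the genome. On the autosomes the H2A.L.2-less lists held 4764344 spermatocyte, 4700815 round spermatid and 3852646 condensing nucleosomes, against 5176848, 5322422 and 3748879 in the WT lists. Small structures numbered 4047666 in H2A.L.2-less and 5291731 in WT cells. The series text gives between 207000000 and 753000000 reads per sample, and the depth of single libraries is unknown. An electrophoretic size class was stated only for the condensing libraries, so a summit that is new by stage cannot be told apart from one that appeared through fragment selection or through a difference in depth.

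New summits made up 33.1% of the WT condensing list, with an SD of 2.10 percentage points over autosomes. The share depended on the rule: it was 50.3% with a radius of 40 bp and 20.25% when the H2A.L.2-less earlier lists counted too. When both earlier lists were moved by 5000 bp, which breaks the register between stages but keeps local density, 51.3% of condensing summits lacked an earlier neighbour. The share was lowest on chromosome 11, at 28.5%, and highest on chromosome 3, at 37.7%. The moved lists gave 44.9% and 58.0% on the same chromosomes, so the ratio to chance ran only from 0.620 to 0.669 over the 19 autosomes. Of the remaining summits, 14.7% of the list had a neighbour in spermatocytes only, 15.04% in round spermatids only and 37.2% at both stages.

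New summits were slightly lower than the others. Their median summit value was 192, or 0.960 ± 0.00629 times the median of the whole list (SD over 19 autosomes), against 200 for the other summits, which is the median of the whole list, with an SD of 0.00952 times. The gap was wider among tall summits: the 99th percentile was 332 for new and 400 for other summits. Among the 10% of summits with the lowest values 40.3% were new, and among the highest 10% the share was 22.5%, while the moved lists gave 54.0% and 48.5%. Very tall summits were seldom new. Of the 3751 summits at or above a value of 1220, which is 6.10 times the list median, 208 were new, or 5.55%. The share after a shift was not computed for these summits. The tallest new summit reached 730.4 times the list median, and the tallest of the others 123313 times.

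**Figure D1:**
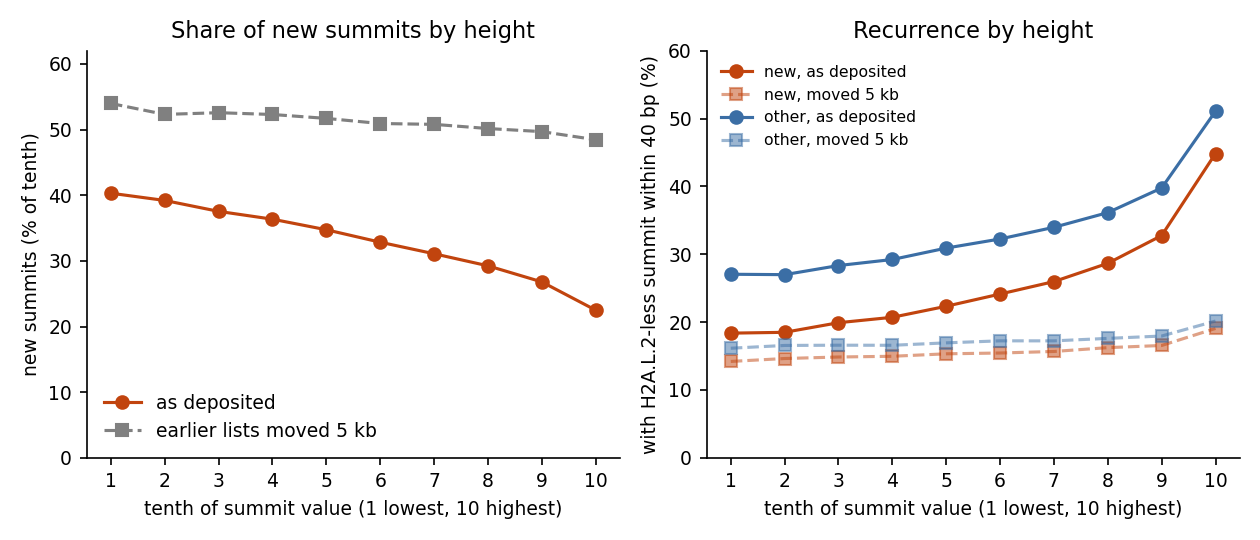
Left, new summits as a percentage of all WT condensing summits in 10 equal bins of summit value (1 lowest, 10 highest), as deposited and with the WT earlier lists moved by 5 kb. Right, percentage of new and of other summits with an H2A.L.2-less condensing summit within 40 bp, by the same bins, as deposited and after a 5 kb shift; the new share is 22.5% in the highest bin, where 44.9% of new and 51.1% of other summits recur.

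New positions as a whole had a slightly lower median fuzziness than the others, and those closest to earlier summits did not. The fuzziness score deposited with each position measures how far fragments scatter round it. Its median was 53.9 ± 0.132 at new summits and 54.4 ± 0.106 at other summits (SD over 19 autosomes). New summits had the lower median on 19 of 19 autosomes, by between -0.58 and -0.40, so the difference exceeded its spread along the genome. With a radius of 40 bp in the rule it shrank to -0.10. The 36.6% of new summits with an earlier WT summit within 120 bp had a median of 54.7, above that of other summits, and the rest of the new summits had a median of 53.4. Tall summits were less fuzzy than low ones in both classes. Within bins of equal height the difference was larger than over the whole list: in the lowest 10% the medians were 54.97 at new and 55.8 at other summits, in the highest 10% 52.2 and 52.8, and new summits were lower in 10 of 10 bins, by between -0.85 and -0.55. Fuzziness varied more with the distance to the next summit. Where the nearest neighbour was 100 to 119 bp away, the medians were 58.1 at new and 58.0 at other summits, and 57.2 and 57.1 at 120 to 139 bp, with the order turned round. In the 7 bins from 140 bp upward new summits were the less fuzzy. Beyond 1000 bp the medians were 52.1 at new and 52.7 at other summits, the widest gap at -0.68.

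**Figure D2:**
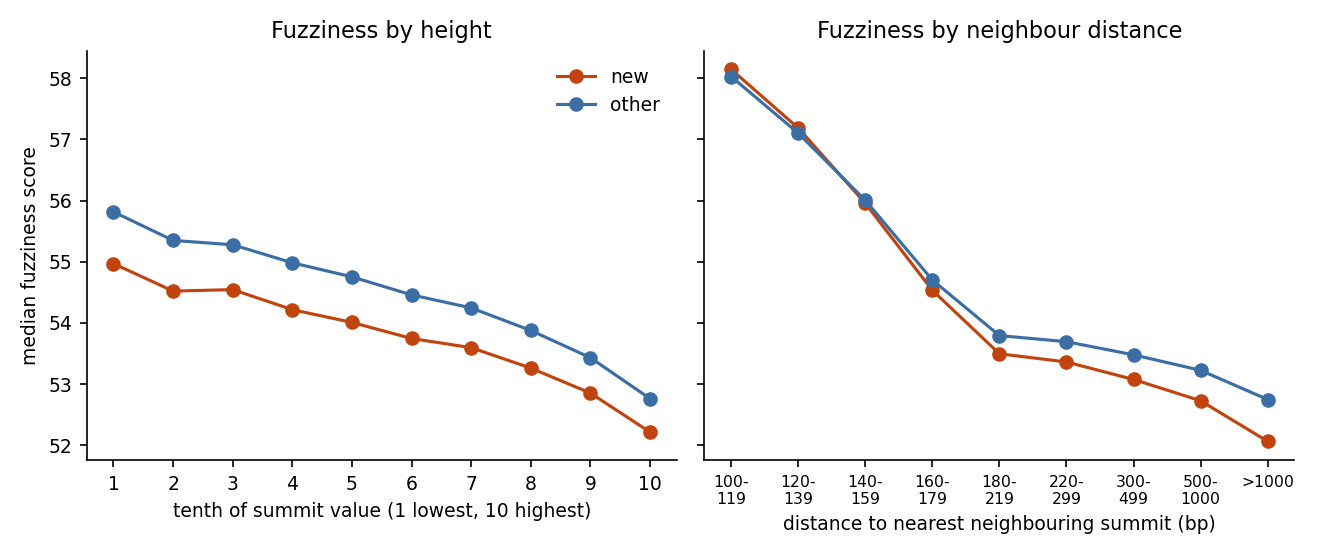
Median fuzziness score of new and other WT condensing summits, by 10 equal bins of summit value (left) and by distance in bp to the nearest summit of the same list (right); the vertical axis does not start at 0. New summits lie below other summits in all 10 height bins and in the 7 bins from 140 bp upward.

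New summits stood further from their neighbours in the condensing list. The median distance to the nearest summit, for gaps up to 1000 bp, was 250 ± 8.09 bp for new and 220 ± 6.06 bp for other summits (SD over 19 autosomes). The difference was 15 bp among summits at or above the list median value, and 20 bp with a radius of 40 bp or with earlier lists of equal length. No neighbour within 1000 bp was found for 6.27% of new and 3.32% of other summits. After a new summit the next one within 1000 bp was new in 37.4% of pairs, and after another summit in 28.8%. When the earlier lists were moved by 5000 bp and the classes assigned anew, the shares were 57.2% and 42.5%, so new summits stood side by side no more than the shift gave. At gaps of 100 to 129 bp, a distance shorter than the 140 bp width that the caller gives each position, the shares were 42.2% and 23.1%, and 65.5% and 33.1% after the shift. No list had summits less than 100 bp apart.

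Most new summits were single, and 24.7% stood in runs of at least 2. Joining new summits in succession with no gap over 300 bp gave 1072607 runs, of which 139631 held at least 2 summits, 1048 at least 5 and 15 at least 10. Runs were not counted with the earlier lists moved, so these numbers have no chance value beside them. The longest run lay on chromosome 5 from 21997921 to 22001611 (mm9), with 22 new summits in 3691 bp. In that stretch the H2A.L.2-less lists held 20 condensing nucleosomes and no position of an earlier stage, the WT lists held no earlier position, and neither small-structure list had any. The next 2 runs by length were on chromosome 1 from 33624231 to 33626221, with 14 summits, and on chromosome 10 from 86930431 to 86932421, with 13. There the H2A.L.2-less condensing list had 10 and 12 positions, and no small structure was called in either genotype. The chromosome 1 run also held 4 spermatocyte and 1 round spermatid position of H2A.L.2-less cells, and the chromosome 10 run held no earlier position of either genotype. In the 3 runs 13, 8 and 5 of the new summits recurred within 40 bp in the H2A.L.2-less list. H2A.L.2-less condensing positions stood close together there, and no share after a shift was computed, so these counts cannot be set against chance. The median heights were 1.39, 1.55 and 1.64 times the list median, above the median of new summits as a whole. The median fuzziness was 58.3, 57.9 and 56.1, also above it. Such runs were picked for their length and stand for few sites, since those of at least 5 summits held 0.468% of new summits.

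Regions with few positions of any kind were richer in new summits. The 100 kb window round a new summit held a median of 165 WT condensing positions, against 187 round other summits, with SDs of 15.4 and 15.8 over autosomes. As a log2 ratio of these medians, taken over all autosomes together, the difference was -0.18. The same ratio taken within each autosome had an SD of 0.05, smaller than that difference. The pooled ratio also takes in differences between chromosomes. The same windows held medians of 211 and 289 WT small structures, in the same order, and 146 and 210 H2A.L.2-less ones. Windows were ranked by their number of WT small structures. In the lowest 4732 windows by that number 46.3% of condensing summits were new, and in the highest 4731 windows 23.2%. Moved lists gave 73.5% and 36.4% there, so the ratio to chance was 0.630 and 0.638. The new share and the share after the shift thus changed by nearly the same factor, and the number of earlier positions in a window, which the rule itself uses, moved with both.

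Across 23656 windows of 100 kb with at least 50 WT condensing summits, the new share had a median of 35.6%, with 22.5% at the 10th and 48.9% at the 90th percentile. The 3 highest windows lay close together on chromosome 7. From 32500001 to 32600000, 220 of 250 summits were new, from 33300001 to 33400000 the count was 201 of 236, and from 33200001 to 33300000 it was 194 of 251. Moved lists gave 92.4%, 88.1% and 84.5% for these windows, above the shares themselves. In the first of these the earlier H2A.L.2-less lists held 151 spermatocyte and 202 round spermatid positions, against 16 and 37 in the WT lists. H2A.L.2-less condensing positions numbered 229, and 31.4% of the new summits recurred among them within 40 bp. For that recurrence no share after a shift was computed in the window. The WT lists of earlier stages were nearly empty there while the H2A.L.2-less ones were not, and the cause was not tested. Leaving out chromosome 7 from 32 to 34 Mb moved the genome-wide share of new summits to 33.0%. The 3 lowest windows were on chromosome 7 from 152400001 to 152500000, with 22 of 254 summits new, on chromosome 7 from 150900001 to 151000000, with 26 of 258, and on chromosome 5 from 140500001 to 140600000, with 29 of 278. Their new shares were 8.66%, 10.1% and 10.4%, and moved lists gave 19.7%, 24.4% and 17.6%, also above the shares themselves. Those 3 windows held between 427 and 448 WT round spermatid and between 496 and 518 WT small-structure positions.

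Relative to the earlier nucleosomes, new summits lay mostly in gaps rather than between close neighbours. The nearest earlier WT summit was a median of 160 bp away (quartiles 103 and 260 bp), and 7.64% of new summits had none within 500 bp. Measured between the earlier WT summits on either side, the gap had a median of 560 bp, and it was at most 300 bp for 16.6% of new summits. These distances follow from the rule. At its border little changed: summits 74 to 80 bp from an earlier one, just inside the set, had a median value of 200 and a fuzziness of 54.8, and those 61 to 73 bp away, just outside it, also had 200 and 54.8.

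The H2A.L.2-less lists of the earlier stages were not used by the rule, but they share many positions with the WT lists that it used. The shares that follow are therefore not independent of the rule, which in part fixes the contrast between new and other summits. H2A.L.2-less spermatocyte summits lay within 73 bp of 48.4% of all WT condensing summits. For new summits the share was 19.3%, with 29.9% after a 5 kb shift (0.646 times chance), and for the others 62.8%, with 33.4% after the shift (1.88 times). H2A.L.2-less round spermatid summits lay within 73 bp of 46.7% of all WT condensing summits. For new summits this share was 27.7%, with 29.7% after the shift (0.934 times chance), and for the others 56.05%, with 31.1% after the shift (1.80 times). New summits thus met spermatocyte positions of the other genotype less often than the shift gave. For its round spermatid positions the log2 ratio to chance was -0.10, and its sign turned with a radius of 40 bp in the rule (0.20), with summits at or above the list median alone (0.02) and with earlier WT lists of equal length (0.08). On single autosomes the ratio for new summits ran from 0.614 to 0.671 in spermatocytes, and from 0.848 to 1.02 in round spermatids, where it was below 1 on 18 of 19.

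Distance curves, which divide the number of summits at each distance by the mean between 800 and 1000 bp, resolved these relations by distance. Around new summits the H2A.L.2-less spermatocyte density peaked at 120 bp (1.14), 280 bp (1.16) and 470 bp (1.15). The H2A.L.2-less round spermatid density was lowest at 30 bp, at 0.817, and peaked at 120 bp (1.20), at 290 bp (1.18) and at 470 bp (1.16), with a trough of 0.902 at 370 bp. Around other summits the round spermatid density was highest at the summit itself, at 2.30. At new summits themselves the H2A.L.2-less round spermatid density was close to background, with 0.971 at 0 bp and 0.992 at 10 bp. It fell to its lowest at 30 bp and was highest 120 bp away. These curves are not independent of the rule, because 51.5% of WT spermatocyte summits and 43.6% of WT round spermatid summits had an H2A.L.2-less counterpart within 40 bp (2.61 and 2.36 times chance).

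**Figure D3:**
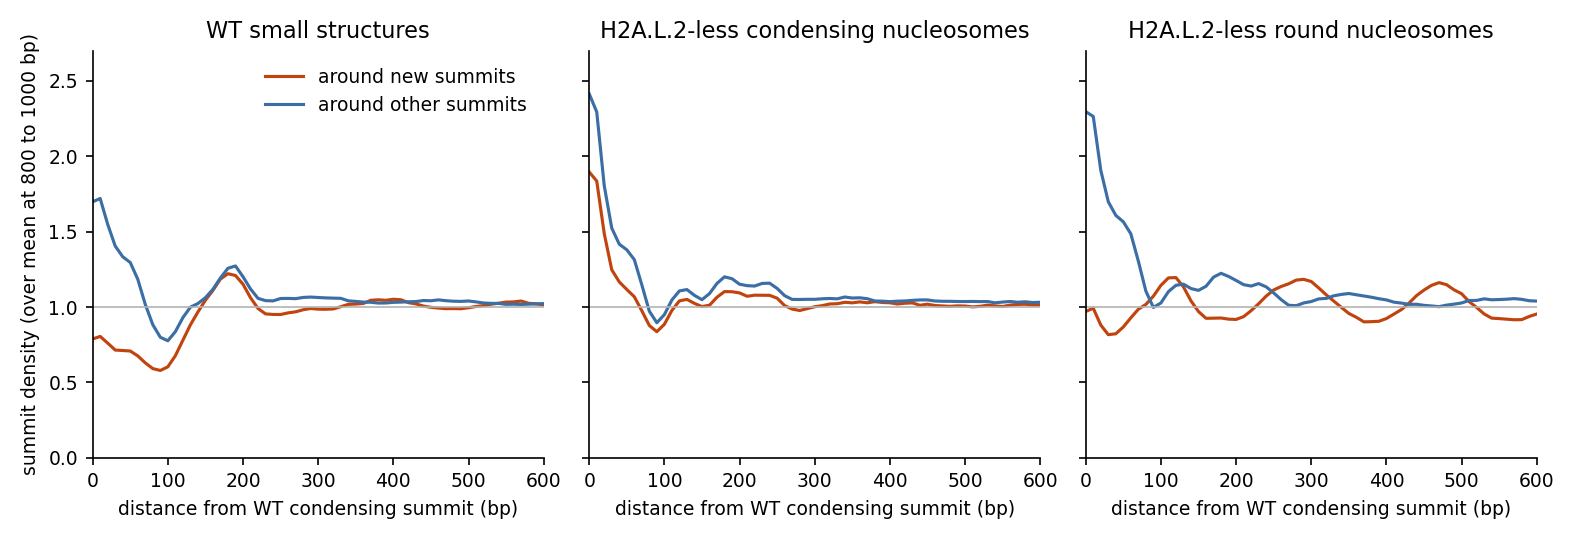
Density of summits of 3 other lists against distance in bp from new and from other WT condensing summits, divided by the mean from 800 to 1000 bp. Around new summits the WT small structures stay below 1 from 0 to 140 bp, H2A.L.2-less condensing nucleosomes peak at 1.90 at the summit, and H2A.L.2-less round spermatid nucleosomes peak at 120, 290 and 470 bp.

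The condensing nucleosomes of H2A.L.2-less cells gave a second library of the same stage in which to look for the new summits. Within 40 bp, 30.9% of all WT condensing summits recurred there. Among new summits 302461 recurred, or 24.4%, with 15.5% after a 5 kb shift, and among the others 34.1%, with 17.4% after the shift. Recurrence of new summits was therefore 1.57 times chance, and that of the others 1.96 times. SDs over autosomes were 1.22 and 1.19 percentage points, and the ratio to chance of new summits ran from 1.47 to 1.71. Recurrence rose steeply with height. In the lowest 10% of values 18.4% of new and 27.1% of other summits recurred, and in the highest 10% 44.9% and 51.1%, or 2.35 and 2.53 times chance. The share for new summits was below that for others in 10 of 10 bins of height, by between -8.68 and -6.23 percentage points, and in 9 of 9 bins of neighbour distance, by between -9.97 and -8.15 points.

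Recurring new summits tended to be new in the other genotype as well. By the same rule applied to the H2A.L.2-less lists, 34% of H2A.L.2-less condensing summits were new. Among those that matched a new WT summit the share was 53.0%, or 160437 summits, and among those that matched one of the other WT summits 17.7%. The earlier lists of the genotypes share positions, so some of this overlap is given by the rule. The H2A.L.2-less summits that matched new WT summits stood at 1.04 times the median of their list, and those that matched other WT summits at 1.08 times.

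Recurrence was graded by how many earlier stages had a summit at the site. It was 24.4% for new summits, 31.1% for those with a neighbour in spermatocytes only, 30.3% in round spermatids only and 36.9% at both stages, with autosomal SDs between 1.02 and 1.29 points. For chance the values were 15.5%, 16.8%, 17.4% and 17.6%. The classes also differed in height, with median summit values of 192, 200, 200 and 208 in the same order. The grading was not repeated at equal height.

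**Figure D4:**
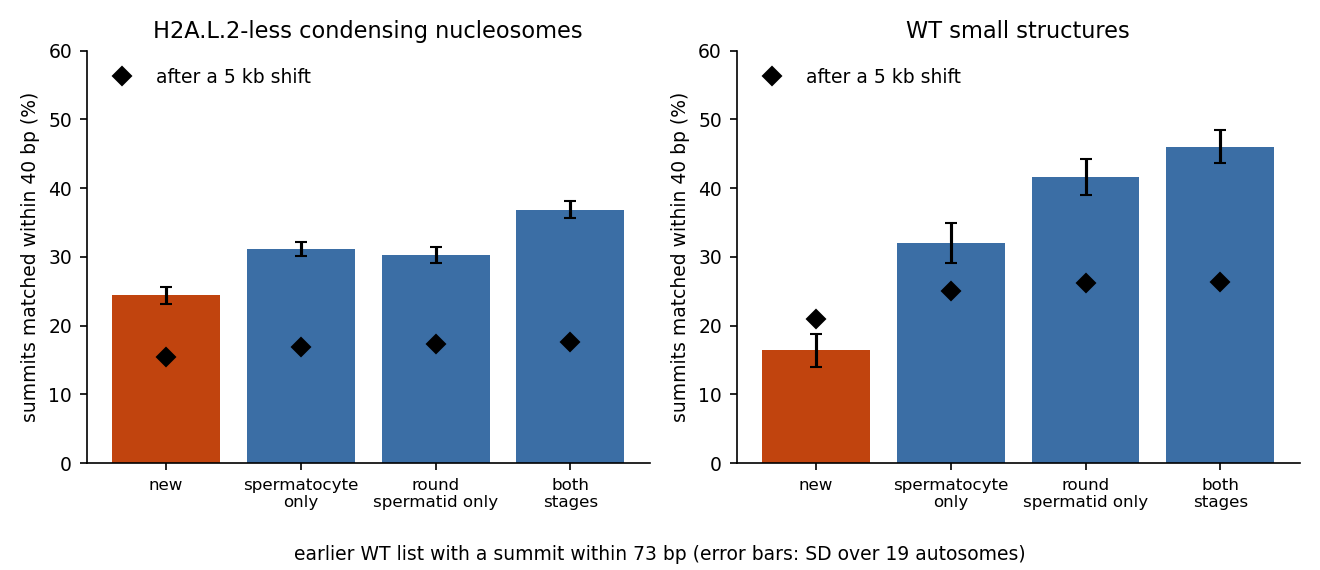
Percentage of WT condensing summits with an H2A.L.2-less condensing nucleosome (left) or a WT small structure (right) within 40 bp, for new summits and for summits with an earlier WT summit in spermatocytes only, round spermatids only or both. Bars are genome-wide shares, error bars the SD over 19 autosomes and diamonds the share after a 5 kb shift; with the 73 bp rule only the new class lies below its diamond for small structures.

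Small structures, the short protected fragments of condensing spermatids, were found less often at new than at other summits. A WT small structure lay within 40 bp of 33.5% of all WT condensing summits. The share was 16.4% at new summits, with 20.9% after a 5 kb shift, and 42.0% at other summits, with 26.01% after the shift. This put new summits at 0.784 times chance, between 0.689 and 0.839 on single autosomes, and other summits at 1.61 times, between 1.50 and 1.83, while a 40 bp rule put new summits at chance (log2 ratio 0.01). The SDs over autosomes were 2.42 and 2.599 percentage points, far below the size of the difference, -25.6 points. Small structures of H2A.L.2-less cells, found at 24.9% of all WT condensing summits, gave the same picture against new WT summits: 12.5% at new summits (0.786 times chance) and 31.0% at other summits (1.51 times).

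The gap was nearly as wide at equal height. In the lowest 10% of summit values, 14.3% of new and 39.5% of other summits had a WT small structure, and in the highest 10% 21.1% and 44.4%. Against the local background of the distance curve, WT small structures had densities of 0.805 at 10 bp from new summits, 0.579 at 90 bp and 1.22 at 180 bp. Around other summits the values were 1.72 at 10 bp, 0.776 at 100 bp and 1.27 at 190 bp. The curves thus differed far more at the summit itself than at their peaks 180 to 190 bp away. The classes between were graded: with an earlier neighbour in spermatocytes only, 31.99% had a WT small structure (1.28 times chance), in round spermatids only 41.6% (1.59 times) and at both stages 46.0% (1.75 times).

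The share with a WT small structure declined with distance from the nearest earlier summit, apart from a rise at 201 to 300 bp, and had no step at 73 bp. It was 1.77 times chance at 0 to 4 bp, 1.22 times at 61 to 73 bp, 1.12 times at 74 to 80 bp, 0.905 times at 91 to 100 bp, 0.634 times at 151 to 200 bp, 0.727 times at 201 to 300 bp and 0.361 times beyond 1000 bp. WT small structures themselves lie on WT round spermatid positions at 1.73 times chance, so the distance that the rule requires bears on this share. The value below chance depended on the radius and on list length: with 40 bp in place of 73 bp in the rule the log2 ratio was 0.01 instead of -0.35, and with the earlier WT lists cut to as many positions as the condensing list it was -0.04. Over the highest 4731 windows by number of WT small structures the ratio at new summits was 0.940, and over the lowest 4732 it was 0.667.

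The same rule in the H2A.L.2-less lists gave a set of nearly the same size, and small structures lay at its summits above chance. In H2A.L.2-less cells 1308888 of 3852646 condensing summits were new, or 34%, against 33.1% in WT, and moved lists gave 53.9% and 51.3%. As in WT they were lower than the others, with medians of 188 and 200, and had a lower median fuzziness, with 54.0 ± 0.140 and 54.5 ± 0.123 (SD over 19 autosomes). They recurred in the WT list at 1.50 times chance, against 2.02 times for the other H2A.L.2-less summits. H2A.L.2-less small structures, however, lay within 40 bp of 20.6% of them, with 18.5% after a 5 kb shift. That is 1.11 times chance, against 0.784 in WT. With a radius of 40 bp in the rule the ratios were 1.16 in H2A.L.2-less cells and 1.01 in WT, and with earlier lists cut to the length of the condensing list 1.16 and 0.971, so the WT value is at about chance in both settings. With the 73 bp rule the H2A.L.2-less ratio was above 1 on 19 of 19 autosomes and the WT ratio below 1 on 19 of 19.

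The ratios changed little when the small structures of the other genotype were used. WT small structures lay at H2A.L.2-less new summits at 1.09 times chance, and H2A.L.2-less small structures at WT new summits at 0.786 times. Other H2A.L.2-less summits had H2A.L.2-less small structures at 1.38 times chance, so new summits were below the others in both genotypes. In H2A.L.2-less cells small structures lay on round spermatid positions at 1.30 times chance, against 1.73 times in WT, and the earlier H2A.L.2-less lists were the shorter ones. The part of either in the difference between genotypes was not tested.

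**Figure D5:**
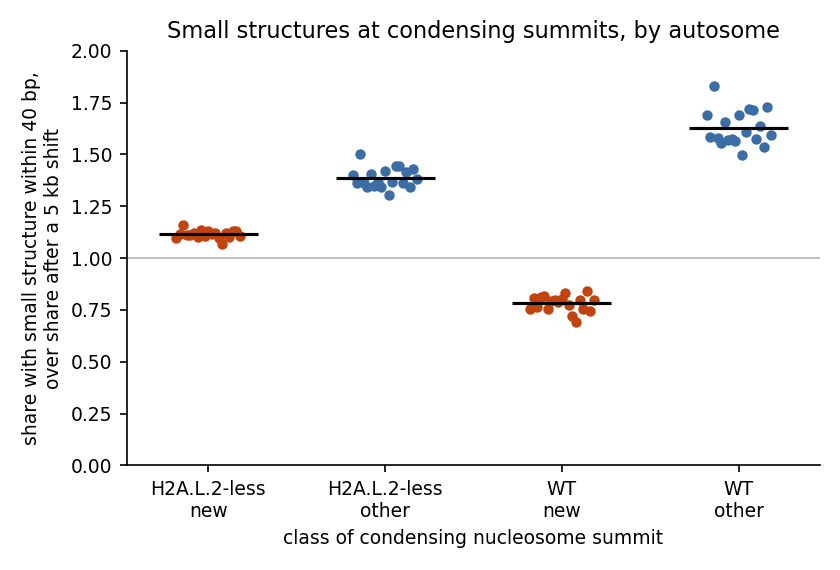
Share of condensing nucleosome summits with a small structure of the same genotype within 40 bp, divided by the share after a 5 kb shift, for new and other summits of H2A.L.2-less and of WT cells. Points are the 19 autosomes and lines their means; H2A.L.2-less new summits lie between 1.07 and 1.16 and WT new summits between 0.689 and 0.839 (73 bp rule; genome-wide the WT ratio is 1.01 with 40 bp).

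The tallest new summits had tall positions of the earlier lists beside them. Leaving out the highest 0.1% of the list, the tallest new summit with an H2A.L.2-less counterpart was at position 90188341 on chromosome 1, with a value of 1212. The WT spermatocyte and round spermatid lists had their nearest summits 90 bp away, with values of 600 and 972, and the H2A.L.2-less condensing list had one at 10 bp, with 1180. A summit of equal height at 145720651 on chromosome 4 had its H2A.L.2-less counterpart at the same base, with a value of 1356, and earlier WT summits at 110 and 120 bp. The third, at 85089421 on chromosome 1 with a value of 1208, had a counterpart 30 bp away. At these 3 sites the nearest earlier WT summit was 80 to 110 bp away and had a value of at least 600. The 3 tallest without a counterpart were at 85321361 on chromosome 1 (value 1200), 146800861 on chromosome 4 (1184) and 19938911 on chromosome 8 (1168), with the nearest H2A.L.2-less condensing summit 80, 50 and 170 bp away. An H2A.L.2-less round spermatid summit lay within 30 bp of each of them, with values of 936, 260 and 272. Among the 3 with a counterpart, the summit at 90188341 also had one at 30 bp. The other 2 had theirs at 100 and 80 bp, and the one at 85089421 had an H2A.L.2-less spermatocyte summit at 10 bp.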

How the data were processed

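The authors deposited lists of called positions on the mm9 build, 1 per library. Bowtie2 2.2.9, deepTools 2.2.4 and mm9 are named in the submitters' processing notes, and per the series text 3 runs per sample were joined after alignment. The position caller's thresholds are not given in the sources used here. Each position carries a summit value and a score of fuzziness, per the file headers. Summit values as deposited are a coverage signal in multiples of 4, with no scaling to depth visible, and the fuzziness score was used as deposited. Between 94.9% and 98.8% of autosomal summits fell on a 10 bp grid.

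Distances between summits were computed from these lists with Python 3.11.15 (numpy 2.4.6, pandas 2.3.3, scipy 1.17.1) and drawn using matplotlib 3.10.9. Recurrence and small structures were counted within 40 bp. Chance is the share after a 5000 bp shift of one list against the other. Shares of WT new and other summits have 95% Wilson half-widths of at most 0.0842 percentage points, which cover counting error only. Neighbouring summits are not independent and groups had 1 library, so no test was made. The code for matching and for distances was tested on simulated data.

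The members, lists and measures were chosen with earlier results of these data known. Named regions are the 3 windows of 100 kb with the highest and the 3 with the lowest new share, the 3 longest runs, and the 3 tallest new summits with and without an H2A.L.2-less counterpart. The H2A.L.2-less version of the rule, the bins of neighbour distance, the ratios to chance under each alternative, the neighbour shares after the shift and the removal of a region of chromosome 7 were added after the data were seen. Gene annotation and base sequence of the mm9 build were not used here, so overlap with genes or start sites and base composition were not run.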

Additional observations from a re-analysis of the deposited data

Results flagged for a closer look

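Small structures of the same genotype lay within 40 bp of new condensing summits at 1.114 times chance for H2A.L.2-less summits and at 0.7843 times chance for WT summits. The value was picked out because it lay above chance in the only H2A.L.2-less set of libraries and below it in the only WT set. The side of chance did not hold in WT under other settings: with a radius of 40 bp in the rule the ratios were 1.161 in H2A.L.2-less and 1.008 in WT cells, and with earlier lists of equal length 1.161 and 0.9712. Each genotype had 1 library per group, so this difference was not tested, nor was its cause.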

How the results depend on the processing

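Of the 8 values compared, the 7 differences between new and other summits kept their direction under the alternatives run. The new share has no direction to lose, and it ran from 20.25% to 50.32%. Of the 69 recomputed values of these 8, 40 moved by more than the spread, and the cause was not tested. The spread was not the same measure for all of them. For height, fuzziness, spacing and density it was the SD over 19 autosomes. For the new share, recurrence, WT small structures and H2A.L.2-less round spermatid summits it was counting error only, from 0.04762 to 0.09992 points. A move counted for those shares need not exceed their variation along the genome. With 40 bp in the rule, 50.32% of summits were new, and new minus other was -0.104 in fuzziness, 20 bp in spacing, -0.1123 in log2 density, -9.519 points in recurrence, -21.55 in WT small structures and -24.29 in H2A.L.2-less round spermatid summits. With 100 bp these were 24.8%, -0.8498, 40 bp, -0.234, -9.874, -26.83 and -27.55. For summits at or above the list median the share was 28.82%, log2 height -0.02554, spacing 15 bp, recurrence -8.717 and small structures -25.07. With equal numbers in the earlier lists the share was 45.15%, log2 height -0.08746, spacing 20 bp, small structures -22.07 and H2A.L.2-less round spermatid summits -27.66. Summits absent from all 4 earlier lists made up 20.25%, with -0.7051 in fuzziness, 25 bp in spacing, -11.45 in recurrence and -22.7 in small structures. Matching within 20 bp gave -6.361 for recurrence and -15.71 for small structures, and within 73 bp -13.58 and -35.4. Weighted over height bins, fuzziness was -0.7018, recurrence -7.952, small structures -25.15 and H2A.L.2-less round spermatid summits -27.32. Weighted over height and neighbour bins, the last 3 were -7.417, -24.46 and -27.22.

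The log2 ratio to chance at new summits turned its sign in 4 cases. For WT small structures it was 0.01149 with the 40 bp rule. For H2A.L.2-less round spermatid summits it was 0.1997 with that rule, 0.02371 at or above the median height and 0.07979 with equal numbers. At H2A.L.2-less new summits the log2 ratio for H2A.L.2-less small structures stayed above 0 in 6 settings added after the data were seen, from 0.06868 to 0.2497. With all 4 earlier lists in the rule, the comparison with H2A.L.2-less round spermatid summits is void by construction. A summit missing from an earlier list cannot be told apart from one below its calling threshold. No paired analysis was possible because each group had 1 library and no replicate numbers.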
